A study of Mus musculus with 6 samples.

Results

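The MS4A genes encode small proteins that cross the cell membrane several times, and 6 of them are described here in cultured mouse macrophages that were derived from bone marrow: Ms4a4b, Ms4a4c, Ms4a6b, Ms4a6c, Ms4a6d and Ms4a7. They were taken by symbol from the 55023 genes of the deposited table, and all 6 were found and passed the filter on low counts. Cells had been treated for 24 h with LCL161 plus LTα1β2, with LTα1β2 alone, or with vehicle, in 2 RNA sequencing libraries per group. LTα1β2, a ligand of the tumour necrosis factor family, signals through the lymphotoxin beta receptor. LCL161 antagonises the ubiquitin ligases cIAP1 and cIAP2, which hold noncanonical NF-kB signalling in check. LCL161 was always given together with LTα1β2, so its effect is measured only on top of the ligand. The labels give no mouse strain, age or drug dose and do not say whether replicates came from different mice or cultures. The p-values therefore speak to library spread alone, which could be technical.

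The founding members of the family are CD20 on B cells, the product of Ms4a1, and the beta chain of the high-affinity IgE receptor on mast cells, the product of Ms4a2. Several members are instead known from macrophages, among them Ms4a4a, Ms4a6d and Ms4a7, and the human MS4A4A protein associates with the beta-glucan receptor dectin-1. Mouse Ms4a4b is best known from T cells, and mouse Ms4a4c as an interferon-responsive gene of myeloid cells. In humans, variation in the region that holds MS4A4A and MS4A6A is associated with the amount of soluble TREM2, a lipid receptor of macrophages and microglia. In the GENCODE M21 annotation of GRCm38 the family forms a cluster of 21 genes on chromosome 19, from 10962293 to 11640851, and the 6 members lie within its part from 11321039 to 11604849.

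Total counts were 14718368 and 14991252 with LCL161 plus LTα1β2, 15958418 and 19049613 with LTα1β2, and 18860062 and 16902717 with vehicle. Levels are given as CPM, counts scaled to TMM-adjusted library sizes. Each log2 fold change carries an approximate standard error (SE), taken as its size over the root of the edgeR quasi-likelihood F statistic. A gene is said to have risen or fallen where the Benjamini-Hochberg adjusted p over 18812 genes was under 0.05. The labelled cell type was checked against its markers. The summed CPM of 9 macrophage genes was 32800 and 34600 with LCL161 plus LTα1β2, 34100 and 33300 with LTα1β2, and 27900 and 34400 with vehicle. Of these 9, 4 rose and 2 fell with LCL161 plus LTα1β2 against vehicle, 2 rose and 5 fell against LTα1β2, and 7 rose with LTα1β2 against vehicle. Over all genes tested, 18.4%, 10.6% and 12.8% were called higher in these comparisons, in that order, and 21.1%, 15.1% and 10.6% lower. Markers of other cells were also found. The 6 neutrophil genes summed to 363 and 387 CPM with LCL161 plus LTα1β2, 1030 and 812 with LTα1β2, and 536 and 783 with vehicle, and the 6 dendritic cell genes to 20.2 and 19.8, 13.9 and 14.6, and 8.86 and 9.67 in that order. The summed CPM of 8 stromal genes was 640 and 670 with LCL161 plus LTα1β2, 2350 and 3310 with LTα1β2, and 8760 and 5860 with vehicle. Of the 7 stromal genes tested, 6 fell in each comparison, beside the 21.1%, 15.1% and 10.6% of all genes given above. In bulk RNA fewer cells of a type and less RNA per cell cannot be told apart, and the part of these shifts in the MS4A values was not tested. The macrophage genes Lyz2 (lysozyme) and Cd68 were not called in any comparison: Lyz2 averaged 25400 ± 1010 CPM with LCL161 plus LTα1β2, 24700 ± 372 with LTα1β2 and 25200 ± 4030 with vehicle, and Cd68 1190 ± 110, 1210 ± 30.9 and 1070 ± 145 in the same order (SD, n = 2 each).

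All 6 members were higher with LCL161 plus LTα1β2 than with vehicle by the test, although the calls of Ms4a7 and Ms4a4b did not survive several alternatives given with these genes below. Across all genes tested 18.4% were called higher in that comparison. Adding LCL161 to LTα1β2 raised 4 members, Ms4a4c, Ms4a6b, Ms4a6c and Ms4a6d, against a background of 10.6% called higher. LTα1β2 alone, against vehicle, raised 3 members, Ms4a4c, Ms4a6b and Ms4a6c, against a background of 12.8%. No member was called lower in any comparison. The libraries did not overlap for all 6 members with LCL161 plus LTα1β2 against vehicle (73.8% of all genes tested), for all 6 against LTα1β2 (67.8%), and for 5 with LTα1β2 against vehicle (63.3%). The median log2 change of the members was 1.68, 1.14 and 0.61 in these 3 comparisons, beside 0.05, 0.00 and -0.04 over all genes tested. Scaling by total counts put those medians at 1.37, 1.01 and 0.42 for the members and at -0.26, -0.12 and -0.23 for all genes, and called 24.6%, 28% and 33% of the called genes higher, against 46.6%, 41.2% and 54.8% with TMM factors. The 3 comparisons share libraries and are not independent of each other. The members were chosen with earlier results of these data known, so their counts and medians are a description and not a test. Other family genes, some of which fell, are given below.

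**Figure D1:**
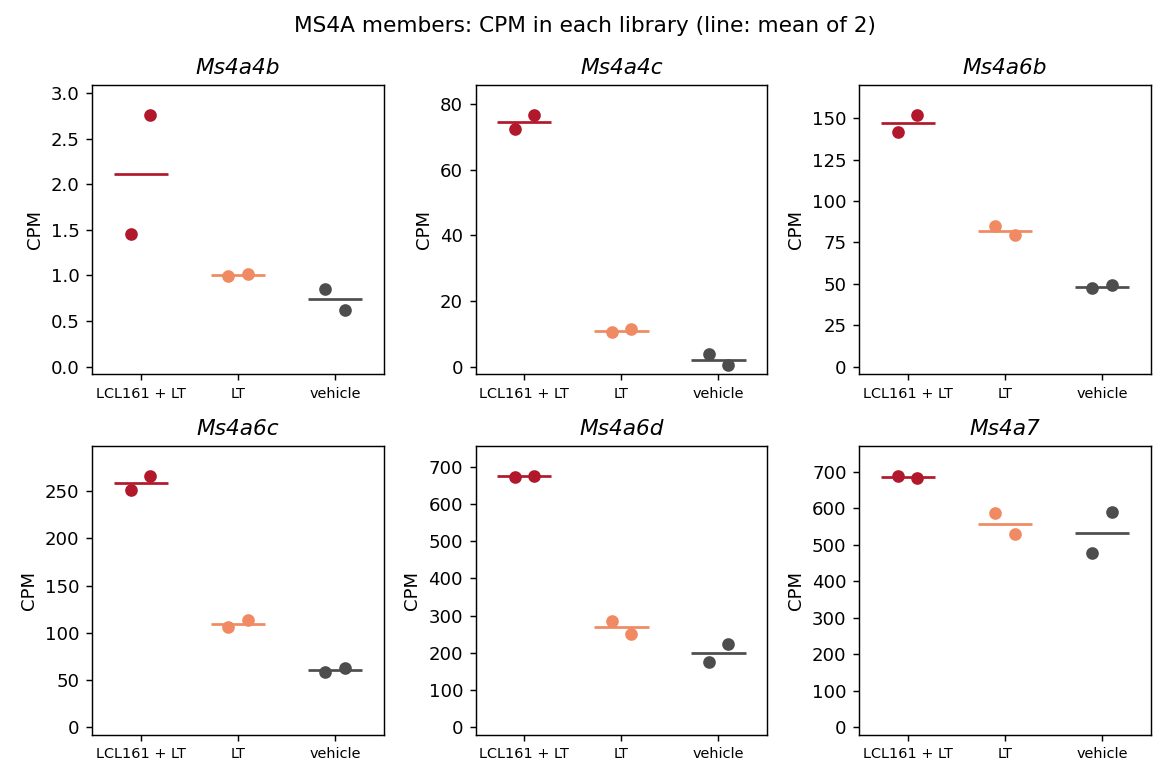
CPM of the 6 members (y axes, linear, one scale per gene) in the LCL161 plus LTα1β2, LTα1β2 (LT) and vehicle libraries (x axes); each point is 1 library and each line the mean of 2. Ms4a6b, Ms4a6c, Ms4a6d and Ms4a4c are highest in both LCL161 plus LTα1β2 libraries, while the Ms4a7 groups lie close together, from 477 to 689 CPM.

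The background counts themselves moved with single libraries. With LCL161 plus LTα1β2 against vehicle 7431 of 18812 genes were called (39.5%), and 4918 without vehicle replicate 1. With LCL161 plus LTα1β2 against LTα1β2 4832 were called (25.7%), and 2318 without LTα1β2 replicate 2. With LTα1β2 against vehicle 4401 were called (23.4%), and leaving out vehicle replicate 1 gave 1893, vehicle replicate 2 gave 2808, LTα1β2 replicate 1 gave 2419 and LTα1β2 replicate 2 gave 2498.

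The 3 Ms4a6 paralogs rose in the combination group, and Ms4a6c and Ms4a6b in both steps. Ms4a6c (chromosome 19, 11469366 to 11482192) had 251 and 266 CPM with LCL161 plus LTα1β2, 106 and 113 CPM with LTα1β2, and 58.3 and 62.7 CPM with vehicle. Its 3 groups are separate, and each lies well outside the replicate spread of the next. It was 4.28 times higher with LCL161 plus LTα1β2 than with vehicle (log2 change 2.10, SE 0.10, edgeR adjusted p = 4.17e-06), 2.37 times higher than with LTα1β2 alone (1.24, SE 0.10, adjusted p = 0.000163), and 1.81 times higher with LTα1β2 than with vehicle (0.85, SE 0.10, adjusted p = 0.000833).

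Ms4a6b (chromosome 19, 11516512 to 11531256) followed the same order at a lower level, with 142 and 152 CPM with LCL161 plus LTα1β2, 84.9 and 79.4 CPM with LTα1β2, and 47.4 and 49.3 CPM with vehicle. Again no library of a group overlapped another group. The log2 change was 1.60 for LCL161 plus LTα1β2 against vehicle (SE 0.10, edgeR adjusted p = 1.27e-05), 0.84 against LTα1β2 (SE 0.10, adjusted p = 0.000773), and 0.76 for LTα1β2 against vehicle (SE 0.10, adjusted p = 0.00145), so the 2 steps were of about equal size. Ms4a6c and Ms4a6b passed the test in all 3 comparisons under each of the 15 alternatives.

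Ms4a6d (chromosome 19, 11586604 to 11604849), the most abundant of the 3 per base of exon, differed in the size of its first step. It had 672 and 675 CPM with LCL161 plus LTα1β2, 285 and 251 CPM with LTα1β2, and 176 and 224 CPM with vehicle. The combination stands far above the other groups, which come close to each other without overlapping. Ms4a6d rose 3.37-fold with LCL161 plus LTα1β2 over vehicle (log2 change 1.75, SE 0.14, edgeR adjusted p = 4.24e-05) and 2.51-fold over LTα1β2 (1.33, SE 0.14, adjusted p = 0.000467). With LTα1β2 against vehicle the log2 change was 0.42 (SE 0.13) and the edgeR adjusted p of 0.0566 missed the threshold. That p fell under it with DESeq2 (0.0308), limma voom (0.038), no filter beyond 1 read (0.000652), a filter of 1 CPM (0.0498), only the 2 groups compared (0.0467) and without vehicle replicate 2 (0.0217), and over all 15 alternatives it ran from 0.000652 to 0.241.

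The counts of the Ms4a6 paralogs carry an uncertainty of assignment. Ms4a6b and Ms4a6c had no whole count in any library and Ms4a6d in 1, which shows that some reads were divided between genes. Exons of Ms4a6c overlap BE692007, an annotated antisense transcript on the other strand, and 51.4% of the 50-base windows of Ms4a6c transcripts occur in another gene's transcripts, nearly all of them in BE692007. Counts of BE692007 were 0.359 and 0.335 of those of Ms4a6c with LCL161 plus LTα1β2, 0.349 and 0.311 with LTα1β2, and 0.356 and 0.378 with vehicle. Without strand, reads of these 2 genes cannot be told apart. Summing both as 1 gene, a step added once the data had been seen, gave a log2 change of 2.07 for LCL161 plus LTα1β2 against vehicle and of 0.81 for LTα1β2 against vehicle, and no call changed. Windows shared with another gene made up 3.57% for Ms4a6b and 2.54% for Ms4a6d.

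Ms4a4c and Ms4a4b are neighbours and close paralogs. The stretches before their RefSeq transcript starts are shown because they are nearly alike while the genes' levels are far apart. That of Ms4a4c lies inside the gene as GENCODE M21 places it, from 11404770 to 11427246, but in no annotated exon. The sequence before that GENCODE start was not examined. The lines below give bases -100 to -11 from the RefSeq transcript start on the plus strand in GRCm38.p6, at chr19:11407561-11407650 for Ms4a4c and chr19:11443458-11443547 for Ms4a4b, written 5′ to 3′ with GAGGAA, the core recognised by the myeloid and B cell factor PU.1, in capitals.
Ms4a4c: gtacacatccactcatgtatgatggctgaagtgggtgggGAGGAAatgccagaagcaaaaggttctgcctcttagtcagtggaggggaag
Ms4a4b: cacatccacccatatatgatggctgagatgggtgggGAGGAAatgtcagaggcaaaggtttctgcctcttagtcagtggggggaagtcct
Aligned end to end, the 2 stretches shared 78 identical bases over 94 columns (83.0%), against 41.1% to 54.0% for the other pairs among the 5 members with a promoter in the table. The core begins at -61 in Ms4a4c and -64 in Ms4a4b. It was also found in Ms4a7, downstream of the start from 43 to 48, so in 3 of the 6 member promoters, and in 28.3% of all 32851 promoters on either strand.

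Ms4a4c (chromosome 19, 11404770 to 11427246) had the widest range of the 6 members in fold, though not in CPM. It had 72.6 and 76.7 CPM with LCL161 plus LTα1β2, 10.5 and 11.5 CPM with LTα1β2, and 3.75 and 0.351 CPM with vehicle. The treated groups are tight and do not overlap, whereas the vehicle libraries are 10.7-fold apart, with 81 reads in replicate 1 and 6.5 in replicate 2. Only 6 of 14773 genes with a vehicle mean of at least 1 CPM, Ms4a4c included, had vehicle libraries as far apart or farther. The others, named after their values were seen, were Ifit3b, Mx1, Gm43611, Prg4 and Thbs4.

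Against LTα1β2, Ms4a4c rose 6.78-fold with LCL161 plus LTα1β2 (log2 change 2.76, SE 0.51, edgeR adjusted p = 0.00706). Against vehicle it rose with LCL161 plus LTα1β2 by 5.14 on the log2 scale (SE 0.60, adjusted p = 0.000371) and with LTα1β2 by 2.38 (SE 0.60, adjusted p = 0.0264). The size of both vehicle comparisons rests on which vehicle library is used: leaving out vehicle replicate 1 gave 7.81 for LCL161 plus LTα1β2 and 5.05 for LTα1β2, and leaving out vehicle replicate 2 gave 4.31 and 1.55. The call of LTα1β2 against vehicle was lost without LTα1β2 replicate 1 (edgeR adjusted p = 0.0825), without LTα1β2 replicate 2 (0.112) and with DESeq2 (0.107). The call of LCL161 plus LTα1β2 against LTα1β2 was lost without LTα1β2 replicate 1 (0.0514), without LTα1β2 replicate 2 (0.0733) and with DESeq2 (0.0623), although its log2 change kept between 2.62 and 2.83 over the 15 alternatives. Adjusted p ran from 6.32e-50 to 0.0733 there, and from 3.51e-32 to 0.112 for LTα1β2 against vehicle. The value of 3.51e-32 came from the edgeR fit with no filter beyond 1 read, beside 0.0264 in the main edgeR fit. Of the 50-base windows of Ms4a4c transcripts, 8.19% occur in another gene, mostly Ms4a4b.

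Among 10107 candidate genes, the 2 whose centred log2 CPM came nearest to Ms4a4c over the 6 libraries were Rsad2 (distance 0.712, Pearson r = 0.999) and Mx1 (distance 0.812, r = 0.993). Both encode antiviral proteins induced by interferon. Rsad2 had 265 and 254 CPM with LCL161 plus LTα1β2, 38.8 and 43.4 with LTα1β2, and 16.4 and 2.59 with vehicle. Mx1 had 82.5 and 76.7 CPM with LCL161 plus LTα1β2, 13.5 and 18.7 with LTα1β2, and 3.03 and 0.27 with vehicle. All 3 genes share the high vehicle replicate 1. Rsad2 and Mx1 were picked for nearness over these same libraries, so that likeness and the high correlations follow from the choice. The correlation is a description over 6 libraries that fall into 3 groups.

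**Figure D2:**
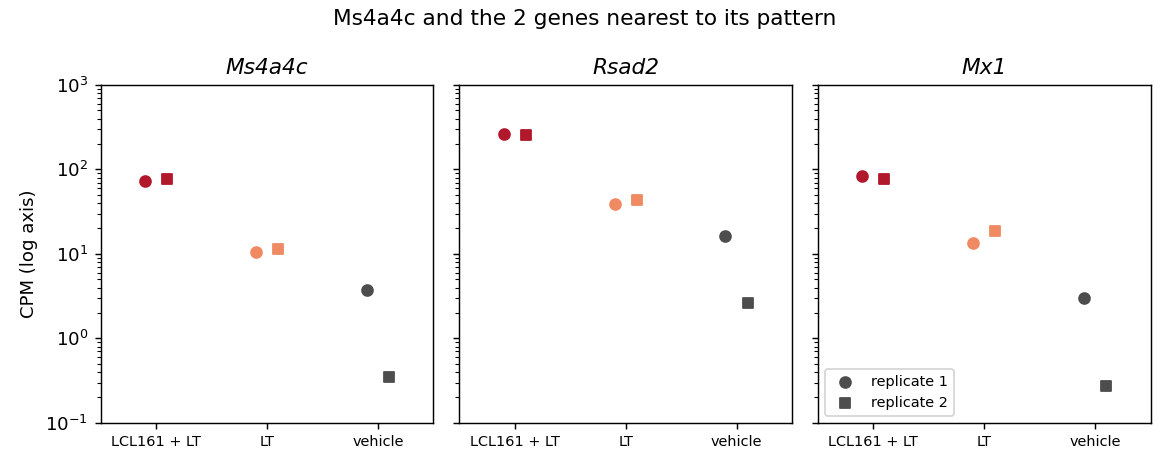
CPM on a log axis (y) of Ms4a4c, Rsad2 and Mx1 in the LCL161 plus LTα1β2, LTα1β2 (LT) and vehicle groups (x); circles are replicate 1 and squares replicate 2. In each gene vehicle replicate 1 lies above vehicle replicate 2, at 3.75 against 0.351 CPM for Ms4a4c, and the treated replicates lie together.

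Ms4a4b (chromosome 19, 11443553 to 11467055) was close to the limit of detection. It had 20 and 36 reads with LCL161 plus LTα1β2 (1.46 and 2.76 CPM), 15.5 and 19 reads with LTα1β2 (0.989 and 1.02 CPM), and 18.5 and 11.5 reads with vehicle (0.856 and 0.622 CPM). The groups do not overlap, but a floor of 3 reads already corresponds to 0.139 to 0.23 CPM. It rose with LCL161 plus LTα1β2 against vehicle (log2 change 1.49, SE 0.44, edgeR adjusted p = 0.0297). That call was lost without LCL161 plus LTα1β2 replicate 2 (0.97, adjusted p = 0.217), without vehicle replicate 1 (1.69, adjusted p = 0.0896), without vehicle replicate 2 (1.33, adjusted p = 0.136), with total-count scaling (adjusted p = 0.0586) and with DESeq2 (adjusted p = 0.0555), and over 15 alternatives adjusted p ran from 0.0155 to 0.217. The log2 changes of 1.04 against LTα1β2 and of 0.45 for LTα1β2 against vehicle did not pass (edgeR adjusted p = 0.112 and 0.54). Ms4a4c was 74.7 ± 2.9 CPM in the combination group, where Ms4a4b was 2.11 ± 0.918 CPM, and per kilobase of exon the levels there were 42.6 and 0.24.

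Markers of T and NK cells, in which mouse Ms4a4b is known, were summed beside it. The 10 genes added up to 25.6 and 24.9 CPM with LCL161 plus LTα1β2, 4.85 and 3.31 with LTα1β2, and 3.75 and 3.97 with vehicle. Most of the rise was Cd247, the CD3 zeta chain gene, at 19.9 ± 0.269 CPM with LCL161 plus LTα1β2, 0.846 ± 0.113 with LTα1β2 and 0.465 ± 0.0685 with vehicle. Without Cd247 the other 9 summed to 5.51 and 5.09, 3.92 and 2.54, and 3.33 and 3.46 CPM in the same order. None of the 10 was at 0 reads in all libraries, and 6 stayed under 1 CPM in every library. Of the 5 tested with LCL161 plus LTα1β2 against vehicle, 2 rose and 1 fell, beside 18.4% and 21.1% of all genes tested. Besides Cd247, the NK cell receptor gene Ncr1 rose, with 21 and 11 reads with LCL161 plus LTα1β2 against 2 and 2 with vehicle (log2 change 3.48, SE 0.99, edgeR adjusted p = 0.0269). The T cell receptor gene Trac fell to 0.224 CPM with LCL161 plus LTα1β2, against 1.39 CPM with vehicle (edgeR adjusted p = 0.00786). Their part in the Ms4a4b values was not tested.

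Ms4a7 (chromosome 19, 11321039 to 11336146), a macrophage gene that also marks macrophages at the borders of the mouse brain, changed least. It had 689 and 684 CPM with LCL161 plus LTα1β2, 586 and 530 CPM with LTα1β2, and 477 and 590 CPM with vehicle. The LTα1β2 and vehicle libraries overlap, and the combination libraries lie above both. Against vehicle, LCL161 plus LTα1β2 gave a log2 change of 0.36 (SE 0.12) with an edgeR adjusted p of 0.049, just under the threshold. The call was lost with relative log expression factors (0.051), total-count scaling (log2 change 0.06, adjusted p = 0.698), no filter beyond 1 read (0.0511), only the 2 groups compared (0.0844) and the replicate block (0.0641). It was also lost without LCL161 plus LTα1β2 replicate 1 (0.129) or replicate 2 (0.121), without LTα1β2 replicate 2 (0.0691) and without vehicle replicate 1 (log2 change 0.22, adjusted p = 0.194). Ms4a7 passed in 6 of the 15 alternatives, with adjusted p from 0.0145 to 0.698. Against LTα1β2 the log2 change was 0.30 (SE 0.12, adjusted p = 0.111), and LTα1β2 against vehicle gave 0.06 (SE 0.12, adjusted p = 0.758), whose sign turned to -0.12 with total-count scaling and to -0.08 without vehicle replicate 1.

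**Figure D3:**
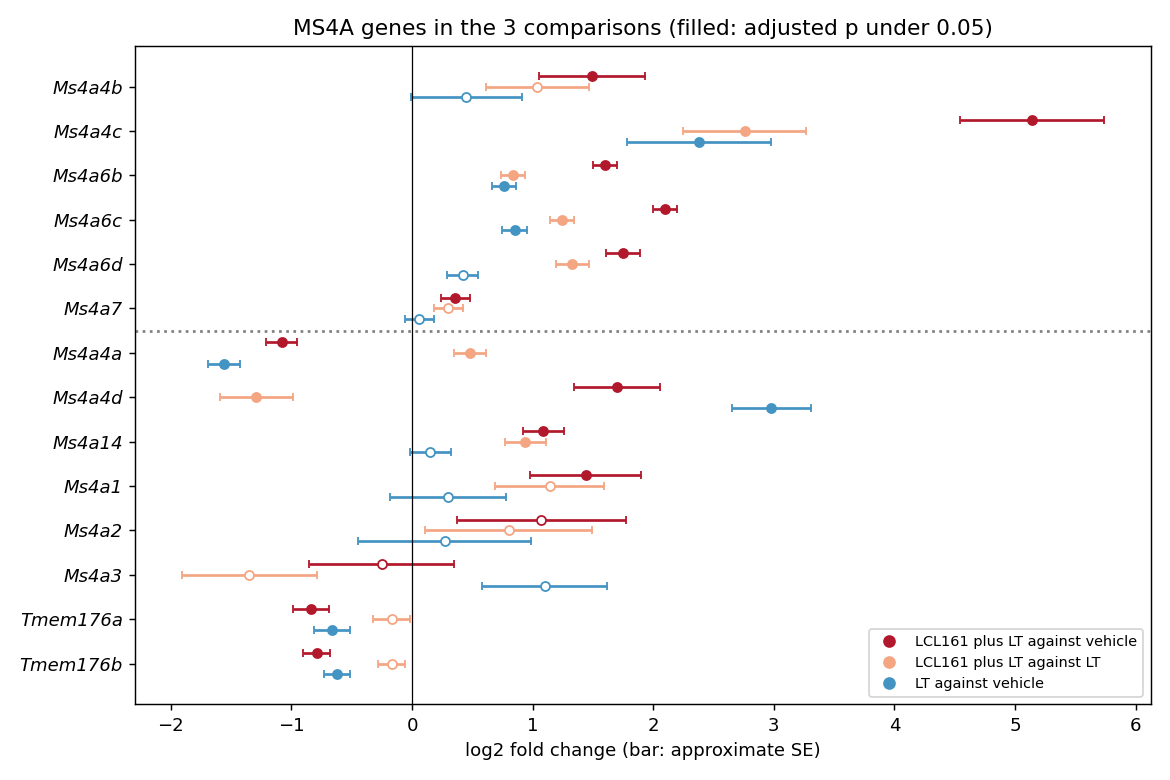
Log2 fold change (x) with its approximate SE for the 6 members (above the dotted line) and 8 other family genes that passed the filter (below it), in the 3 comparisons (colours); filled points passed the test. Ms4a4c reaches 5.14 with LCL161 plus LTα1β2 against vehicle, the Ms4a6 genes 1.60 to 2.10, and Ms4a4a and the Tmem176 genes lie below 0 in both comparisons with vehicle.

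The other genes of the family did not move as 1 block. Of 15 further family genes and relatives listed, 8 passed the filter. With LCL161 plus LTα1β2 against vehicle 3 rose (Ms4a4d, Ms4a14 and Ms4a1) and 3 fell (Ms4a4a, Tmem176a and Tmem176b). Against LTα1β2, Ms4a4a and Ms4a14 rose and Ms4a4d fell, and with LTα1β2 against vehicle Ms4a4d rose and Ms4a4a, Tmem176a and Tmem176b fell. The share of all genes tested called lower was 21.1%, 15.1% and 10.6% in these comparisons, and the share called higher 18.4%, 10.6% and 12.8%. The median log2 change of the 8 genes was 0.41, 0.16 and 0.21. The other 7 of the list, and the family genes Ms4a19 and Ms4a20 that the table holds under 1700025F22Rik and 1700017D01Rik, had at most 9 reads in any library.

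Ms4a4a, the member best known from human and mouse macrophages, had 47.8 and 46.5 CPM with LCL161 plus LTα1β2, 33.7 and 33.9 CPM with LTα1β2, and 87.5 and 112 CPM with vehicle. Unlike the Ms4a6 genes it was highest with vehicle, and it was lowest with LTα1β2. It fell with LTα1β2 to 0.338 of the vehicle level (log2 change -1.56, SE 0.13, edgeR adjusted p = 0.000215) and was lower with LCL161 plus LTα1β2 than with vehicle (-1.08, SE 0.13, adjusted p = 0.000468). The rise against LTα1β2 (0.48, SE 0.13, adjusted p = 0.0349) was lost without LCL161 plus LTα1β2 replicate 1 (0.0999) or replicate 2 (0.0637), without LTα1β2 replicate 1 (0.107) or replicate 2 (0.139), with total-count scaling (0.0681) and with no filter beyond 1 read (0.114), over a range of 0.0213 to 0.139.

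Ms4a4d, the neighbour of Ms4a6b, had its highest level with the ligand alone: 3.58 and 4.29 CPM with LCL161 plus LTα1β2, 8.61 and 10.6 CPM with LTα1β2, and 1.67 and 0.703 CPM with vehicle. The 3 groups do not overlap. It was higher with LTα1β2 than with vehicle (log2 change 2.98, SE 0.33, edgeR adjusted p = 8e-04) and lower with LCL161 plus LTα1β2 than with LTα1β2 (-1.29, SE 0.30, adjusted p = 0.0184). The second call was lost without LCL161 plus LTα1β2 replicate 1 (0.0685) and without LTα1β2 replicate 2 (0.125), over a range of 1.17e-07 to 0.125. LCL161 plus LTα1β2 against vehicle gave 1.70 (SE 0.36, edgeR adjusted p = 0.00784). Leaving out vehicle replicate 1 put this at 2.47 and the change with LTα1β2 at 3.76, and leaving out vehicle replicate 2 put them at 1.23 and 2.52.

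Ms4a14 had 28 and 25.7 CPM with LCL161 plus LTα1β2, 14.4 and 13.6 CPM with LTα1β2, and 10.6 and 14.6 CPM with vehicle. It was separate in the combination group, and LTα1β2 and vehicle overlapped. Its log2 change was 1.09 with LCL161 plus LTα1β2 against vehicle (SE 0.17, edgeR adjusted p = 0.00157) and 0.94 against LTα1β2 (SE 0.17, adjusted p = 0.00605), the second lost without LTα1β2 replicate 2 (0.0576). Tmem176b, from a related pair of genes, averaged 58.1 ± 2.36 CPM with LCL161 plus LTα1β2, 65.1 ± 8.41 with LTα1β2 and 100 ± 0.656 with vehicle. It fell in both comparisons with vehicle (log2 change -0.79 and -0.62, edgeR adjusted p = 0.00116 and 0.00737), the second lost without LTα1β2 replicate 1 (0.0598) and without vehicle replicate 1 (0.0508). Tmem176a fell likewise (-0.84 and -0.66, edgeR adjusted p = 0.00324 and 0.0158), the second lost without LTα1β2 replicate 1 (0.119) and without vehicle replicate 1 (0.122).

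The lineage genes of the family stayed low. Ms4a1, which encodes CD20, had 41 and 29.1 reads with LCL161 plus LTα1β2, 25 and 15 with LTα1β2, and 15 and 23 with vehicle. Its groups overlap between LTα1β2 and vehicle, and it rose only against vehicle with LCL161 plus LTα1β2 (log2 change 1.44, SE 0.46, edgeR adjusted p = 0.0392). The 6 B cell markers summed to 18.5 and 13.8 CPM with LCL161 plus LTα1β2, 21.9 and 13.3 with LTα1β2, and 18 and 16.4 with vehicle. Ms4a2 had 5 to 18 reads per library and Ms4a3, known from granulocyte-monocyte progenitors, 4 to 25, and neither passed in any comparison. The 6 mast cell and basophil markers summed to 10.6 and 8.65 CPM with LCL161 plus LTα1β2, 14 and 9.52 with LTα1β2, and 7.11 and 7.32 with vehicle. The 4 progenitor markers summed to 1.2 and 0.613 CPM with LCL161 plus LTα1β2, 7.5 and 4.04 with LTα1β2, and 2.87 and 8.84 with vehicle.

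Per kilobase of exon the make-up of the chromosome 19 cluster differed between the groups. Ms4a6b, Ms4a6c and Ms4a6d together took 67.1% and 67.6% of the summed CPM per kilobase of the 21 genes with LCL161 plus LTα1β2, 55.3% and 55.0% with LTα1β2, and 39.1% and 38.5% with vehicle. Ms4a4a took 7.09% and 6.81% with LCL161 plus LTα1β2, 9.5% and 10.3% with LTα1β2, and 29.1% and 30.2% with vehicle. The share of Ms4a7 was 19.2% and 18.8%, 31.0% and 30.1%, and 29.8% and 29.9% in that order. The replicates of each group lie within 2 percentage points of each other in each of these shares, and shares sum to a fixed total, so a rise of one gene lowers the others.

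In levels per kilobase, vehicle cultures held Ms4a7, Ms4a4a and Ms4a6d side by side, at 120 ± 17.9, 119 ± 20.7 and 115 ± 19.6 CPM per kilobase. In that order they had 107, 105 and 101 in vehicle replicate 1 and 132, 134 and 129 in vehicle replicate 2. The SD is thus mostly a shift between the libraries that the 3 genes share, and does not measure differences between genes. With LCL161 plus LTα1β2 these 3 were apart, with Ms4a6d at 388 ± 1.22, Ms4a7 at 154 ± 0.794 and Ms4a4a at 56.4 ± 1.1 CPM per kilobase, and Ms4a6c stood between the last 2 at 126 ± 5.17 (SD, n = 2 each). These levels use the union of all annotated exons, which is 8780 bases for Ms4a4b and 836 for Ms4a4a, so a long minor isoform lowers the value of its gene.

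**Figure D4:**
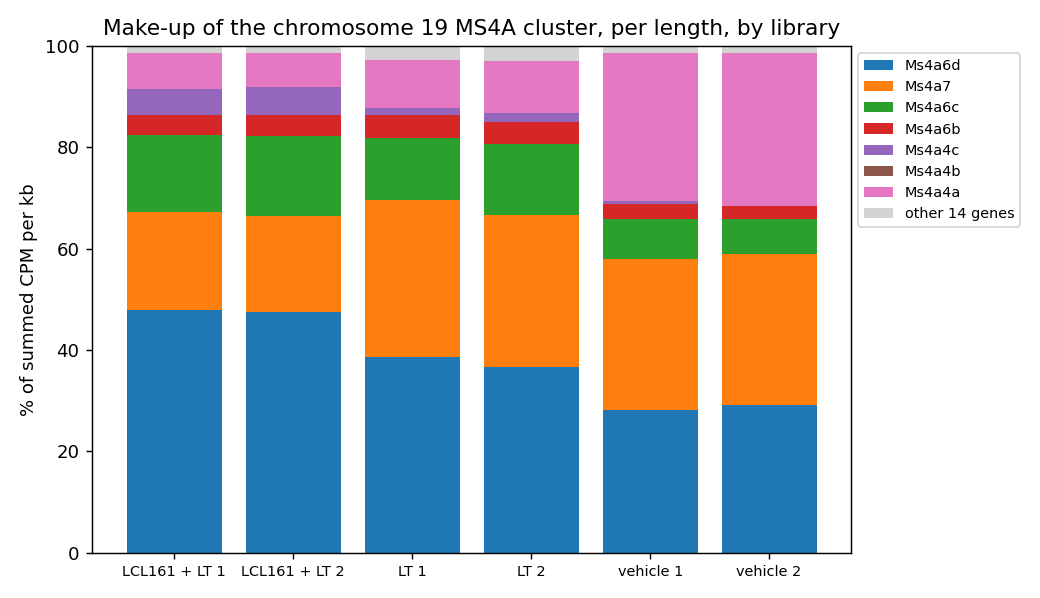
Share (y, %) of the summed CPM per kilobase of the 21 MS4A genes on chromosome 19 taken by each of the 6 members, Ms4a4a and the other 14 genes (colours) in the 6 libraries (x). Ms4a6d grows to 48.0% and 47.6% in the LCL161 plus LTα1β2 libraries, against 28.2% and 29.1% in vehicle, and Ms4a4a shrinks.

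The genes around the MS4A cluster were read as well. Of the 5 protein-coding genes on each side, 5 of 10 passed the filter, and with LCL161 plus LTα1β2 against vehicle Ccdc86 was called higher and Tmem109 lower. Against LTα1β2, Tmem109 and, just past the threshold, Mrpl16 were called lower (Mrpl16 log2 change -0.47, edgeR adjusted p = 0.049). With LTα1β2 against vehicle Ccdc86 was called higher. Tmem109 averaged 78.6 CPM with LCL161 plus LTα1β2, 129 with LTα1β2 and 137 with vehicle, and Ccdc86 103, 89.5 and 44.7 in that order. The 12 family genes tested inside the cluster include the 6 members, so their calls are not separate from those given above. Of these 12, 9 were called higher and 1 lower with LCL161 plus LTα1β2 against vehicle. For LCL161 plus LTα1β2 against LTα1β2, 6 were higher and 1 lower, and for LTα1β2 against vehicle 4 higher and 1 lower. Among all genes tested, 18.4%, 10.6% and 12.8% were called higher in these comparisons, and 21.1%, 15.1% and 10.6% lower. Gm8369, the predicted gene between Ms4a6c and Ms4a6b, had 5 to 23 reads per library and was called in none.

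**Figure D5:**
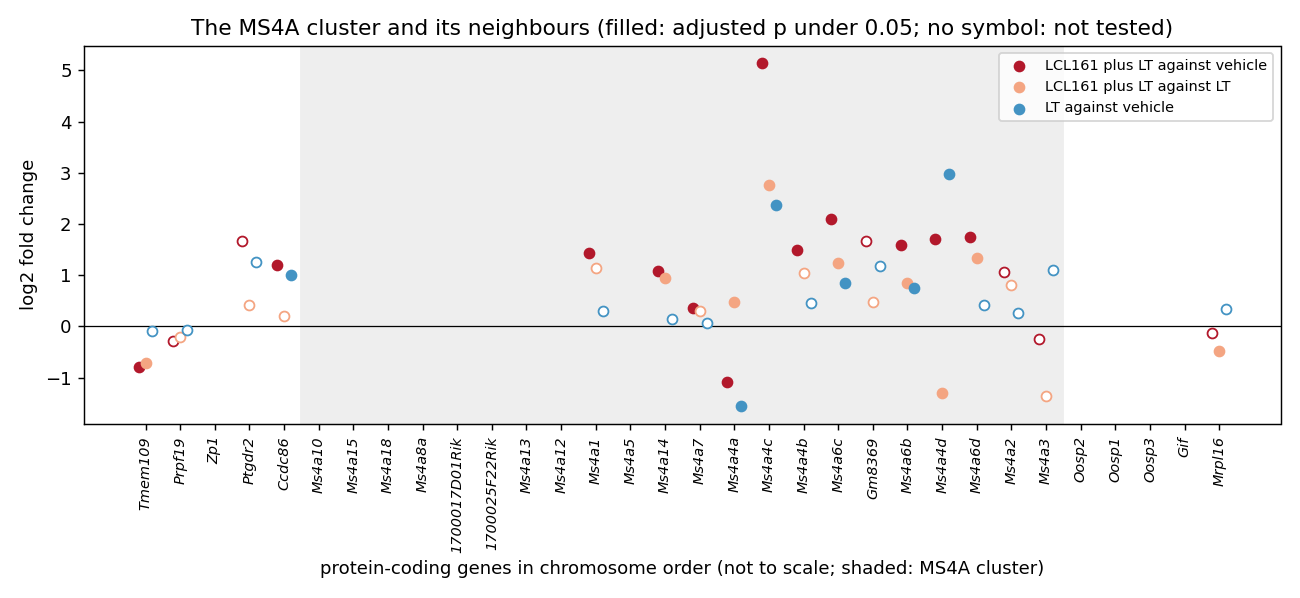
Log2 fold change (y) of the genes in and around the MS4A cluster in chromosome order (x, not to scale) for the 3 comparisons (colours); filled points passed the test and genes without a point were not tested. With LCL161 plus LTα1β2 against vehicle the family genes called higher from Ms4a4c to Ms4a6d lie between 1.49 and 5.14, next to Ms4a4a at -1.08.

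The promoters of 5 members are in the RefSeq table, 6 promoters in all (250 bases before to 50 after the start, GRCm38.p6), and were searched on both strands for short motifs. The core of the interferon-stimulated response element was found in none of them, and in 3.44% of all 32851 promoters. The STAT-binding GAS core, TTCNNNGAA, was found in none either, and in 8.3% of all. A simplified kappaB motif was found in 1, that of Ms4a6c, and in 20.7% of all. It is shown in capitals because noncanonical NF-kB is a pathway that the 2 agents act on, and its part in the Ms4a6c values was not tested. The 60-base stretch is on the plus strand at chr19:11469148-11469207, where the motif lies in the reverse orientation from -189 to -180.
Ms4a6c: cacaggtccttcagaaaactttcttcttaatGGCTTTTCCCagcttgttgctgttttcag
A match is a description of the letters and not a binding site, and a missing match says only that these letters are not in this window.

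The genes nearest in pattern to the other members were named by the same rule as for Ms4a4c. For Ms4a6c they were Spata13 (distance 0.125), with 103 ± 1.93 CPM with LCL161 plus LTα1β2, 45.7 ± 1.67 with LTα1β2 and 25.4 ± 1.67 with vehicle, and Rnaset2b, a ribonuclease (0.165). For Ms4a6b they were M6pr, a mannose 6-phosphate receptor (0.124), and Gna13, a G protein alpha subunit (0.155). For Ms4a6d they were Lrrk2, a kinase (0.168), with 86.3 ± 2.49 CPM with LCL161 plus LTα1β2, 34.3 ± 0.658 with LTα1β2 and 25.9 ± 3.92 with vehicle, and Acss2, an acetyl-CoA synthetase (0.187). For Ms4a7 they were Narf (0.102) and Slc35a5 (0.107), and for Ms4a4b Msantd3 (0.39) and Ppp3cc, a calcineurin subunit (0.439). The distance is the root of the summed squared differences of centred log2 CPM over 6 libraries.

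Of 12 genes listed as partners or companions of MS4A proteins, 11 passed the filter. With LCL161 plus LTα1β2 against vehicle 4 rose and 2 fell, against LTα1β2 5 rose and 2 fell, and with LTα1β2 against vehicle 3 rose and 1 fell. Of all genes tested, 39.5%, 25.7% and 23.4% were called in either direction in these comparisons. Those called higher were 18.4%, 10.6% and 12.8% of all genes tested. The median log2 change of the 11 genes was 0.06, 0.17 and 0.32. Clec7a, which encodes dectin-1, rose in both steps, at 448 and 419 CPM with LCL161 plus LTα1β2, 304 and 239 with LTα1β2, and 74.7 and 107 with vehicle (log2 change 0.68 against LTα1β2, edgeR adjusted p = 0.0313). Syk, the kinase downstream of dectin-1, had 681 and 680 CPM with LCL161 plus LTα1β2, 296 and 278 with LTα1β2, and 215 and 243 with vehicle. It rose against LTα1β2 (log2 change 1.25, SE 0.10, edgeR adjusted p = 0.000194).

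Trem2 went the other way from the Ms4a6 genes when LCL161 was added. It had 192 and 218 CPM with LCL161 plus LTα1β2, 446 and 389 with LTα1β2, and 328 and 405 with vehicle, and fell against LTα1β2 (log2 change -1.03, SE 0.14, edgeR adjusted p = 0.00159) and against vehicle (-0.84, SE 0.14, adjusted p = 0.00204). The 2 proteases that release the TREM2 ectodomain moved apart against LTα1β2. Adam17 was at 753 and 739 CPM with LCL161 plus LTα1β2 and 371 and 355 with LTα1β2 (log2 change 1.04, SE 0.09, adjusted p = 0.000278), and Adam10 at 236 and 220 against 377 and 313 (-0.59, SE 0.15, adjusted p = 0.0226). Fcer1g, the signalling chain that pairs with the IgE receptor beta chain, rose in each comparison, to 1630 ± 159 CPM with LCL161 plus LTα1β2, against 1010 ± 22.9 with LTα1β2 and 535 ± 34.8 with vehicle. Tnfrsf18, whose product GITR is linked to Ms4a4b in mouse T cells, stayed at or under 1.04 CPM in every library.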

How the data were processed

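RNA of mouse bone marrow-derived macrophage cultures was sequenced in 6 libraries, grouped by title. The values deposited by the authors are unnormalised expected counts per gene, with 66.6% of the non-zero values whole. The submitters' processing notes name GRCm38, DESeq2 1.26.0 and STAR 2.7.3a. How reads were counted (program, annotation, strand, reads with several matches) is not given in the sources used here. For the tests, counts were rounded. The filter filterByExpr (minimum 10 reads) kept 18812 of 55023 genes. The 3 comparisons were fitted in edgeR 4.0.16 (R 4.3.3) with a group-means quasi-likelihood model over all 6 libraries, TMM factors and Benjamini-Hochberg adjustment, and the fit was tested on simulated data. The coefficient of variation between libraries of a group beyond counting error, from the common dispersion, was 13.6% (residual degrees of freedom 3, prior 4.59). Replicates differed by more than counting error (chi-square per degree of freedom 11.9, 8.14 and 15.6 for LCL161 plus LTα1β2, LTα1β2 and vehicle). The members and lists were chosen with earlier results of these data known. Named were the members, the family, companions, markers, the genes flanking the cluster and, for each member, the 2 genes of at least 5 mean CPM, predicted models left out, nearest in centred log2 CPM. Promoters were compared by global alignment in Biopython 1.88. Alternatives were relative log expression factors, total-count scaling, DESeq2 1.42.0, limma 3.58.1 voom, 2 other filters, a fit of just the pair of groups, a replicate block, leaving out each library and, added after the data were seen, the summed overlapping pair.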

Additional observations from a re-analysis of the deposited data

How the results depend on the processing

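Over 15 alternatives, 14 of them planned, Ms4a6b and Ms4a6c kept direction and call in the 3 comparisons, as did Ms4a6d and Ms4a4c where LCL161 plus LTα1β2 was set against vehicle, and Ms4a6d against LTα1β2. DESeq2 gave log2 changes of 2.43 (LTα1β2 against vehicle) and 2.76 (LCL161 plus LTα1β2 against LTα1β2) for Ms4a4c and 1.49 (LCL161 plus LTα1β2 against vehicle) for Ms4a4b, none past the threshold, and total-count scaling 1.17 for Ms4a4b. For Ms4a7 with LCL161 plus LTα1β2 against vehicle the value was 0.36 with relative log expression factors, 0.06 with total-count scaling, 0.31 with no filter, 0.34 with only the 2 groups and 0.37 with the replicate block, none past the threshold; with LTα1β2 against vehicle total-count scaling turned it to -0.12, and Ms4a14 to -0.04. Ms4a6d with LTα1β2 against vehicle passed at 0.42 with DESeq2, 0.43 with voom, 0.50 with no filter, 0.43 with at least 1 CPM in 2 libraries and 0.45 with only the 2 groups. The cause of these shifts was not tested. With each library left out in turn, genes called ran from 1893 to 4994 for LTα1β2 against vehicle, from 2318 to 4432 for LCL161 plus LTα1β2 against LTα1β2 and from 4918 to 7578 for LCL161 plus LTα1β2 against vehicle. For LTα1β2 against vehicle the log2 change then ran from 1.55 to 5.05 for Ms4a4c, 0.26 to 0.61 for Ms4a6d, -0.08 to 0.23 for Ms4a7 and -0.06 to 0.39 for Ms4a14. It ran from 2.7 to 2.83 for Ms4a4c against LTα1β2, and with LCL161 plus LTα1β2 against vehicle from 0.22 to 0.53 for Ms4a7 and 0.97 to 1.88 for Ms4a4b. A group reduced to 1 library is assumed to vary like the others. Replicate numbers are shared between groups, but the correlations of same-numbered deviations were 0.157, 0.0941 and 0.138 and no label pairs the samples; the replicate block called 4629 genes for LCL161 plus LTα1β2 against LTα1β2, against 4832 without it, and changed no member call other than that of Ms4a7. Depth limits Ms4a4b and the lineage genes, with under 50 reads per library.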
